A study of Mus musculus with 4 samples.

Results

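The mouse immunoglobulin kappa locus was followed through 94 array probes, of 41174 different non-control probes on each array. A probe was taken when the array annotation, on the mm8 build, placed it in a window of chromosome 6 around the locus. The rule itself used no signal, though the members were chosen with earlier results of these data known. The members other than non-immunoglobulin genes start between 67485647 and 70655928. The arrays carried RNA of lymphoma line 1 and lymphoma line 2, B-cell lymphoma lines established from mice with a dopamine receptor 3 transgene, and of splenocytes 1 and 2, B220+ spleen cells of C57BL/6N mice. B220 is a surface form of CD45 used to select B cells. Per the labels, all 4 samples are female and of strain C57BL/6N, and the series text calls the lines independently established, without saying how. The kappa probes called higher in the lines were so in both, but the call itself favours probes at which the lines agree. Whether the lines share an origin was not tested. If they did, the 2 line arrays would not stand for 2 tumours. Each line was measured on 1 array, and the promoter of the transgene, the ages of the mice and any pooling are not given in the sources used here. Nothing says whether the splenocyte samples came from separate mice, so the p-values cover only how much these samples vary, and that variation may be technical. The groups differ as tumour against normal cells, as cultured lines against selected spleen cells, and in mice of origin, and these cannot be told apart.

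An antibody light chain comes from the kappa or the lambda locus. In the kappa locus a developing B cell joins 1 of many variable segments, Igkv, to 1 of a few joining segments, and the transcript is spliced to a single constant segment. A population of many B cells therefore carries many Igkv segments, whereas the cells of a clone share the same rearrangement. Igkv segments are grouped in families by sequence, so a probe for 1 segment can also bind transcripts of its relatives. The probe sequences were not used here, and such binding was not tested. Variable segments are numbered from the constant end, so that Igkv1-135 lies far from it and Igkv3-1 next to it.

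The annotation named the segment for 46 of the 94 probes, which covered 41 segments of 15 families. For 29 probes the segment came from the description and for 17 from the gene name, matched to RefSeq. Another 18 probes were described as immunoglobulin with no segment, 26 had no gene given, and 4 belonged to other genes of the window. No probe was annotated as the constant segment alone. Some annotations of the array are doubtful: a probe at 67791163 is named Asb2 but described as an antibody fragment, and a probe at 70270592 is named Igh-6, the name of the mu heavy chain, which lies on chromosome 12. The probe EG434026 is Igkv2-109 in its description, as it is counted here, and Igkv2-116 in RefSeq. Its start, 68082129, lies between probes of Igkv9-120 and Igkv2-112, the place of Igkv2-116 by the numbering. Igk-V33 (start 68840149) was matched to Igkv13-84, although it starts 90 bases from the Igkv4-86 probe. Another probe, at 68869439, is described as Igkv13-84.

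Signals are given as relative signal, the processed signal divided by the 75th percentile of its array, so that 1 stands for a fairly bright spot. A probe is called bright on an array when the scanner software marked it as well above background. Among the kappa probes 65 were bright in line 1 and 69 in line 2, against 91 in splenocytes 1 and 89 in splenocytes 2. Over the whole array the numbers were 26064 and 25904 in the lines, against 27319 and 24974 in the splenocytes. No spot was saturated. The genes listed as mature B-cell markers, Cd79a, Cd79b, Ms4a1, Cd22, Pax5, Ptprc and Blnk, were bright on every array. Of these 7, 5 were lower in the lines. Ptprc encodes CD45, and whether its probe reads the B220 form was not checked. The summed relative signal of the 7 genes was 428 and 416 in the lines, against 695 and 894 in the splenocytes.

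Transcripts of the kappa locus were lower in both lymphoma lines at most probes and higher at a few. Of 89 probes bright on at least 2 arrays, 79 were lower in the lines (32.5% of all 27404 probes tested were lower) and 7 were higher (32.3% of all probes tested were higher). The call was an adjusted p under 0.05 in limma. These counts include the non-immunoglobulin genes of the window, without which 78 of 85 tested probes were lower and 6 higher. Of the 46 probes with a named segment, 44 were lower and 2 higher. The 17 tested probes described as immunoglobulin with no segment were all lower. The median difference between lines and splenocytes was −5.72 on the log2 scale, beside −0.01 over all tested probes. In such bulk samples fewer cells that use a segment and less RNA per cell cannot be told apart.

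Many members passed the brightness filter through the splenocytes. Of the 94 probes, 19 were bright in both splenocyte samples and in neither line, 6 in both splenocyte samples and 1 line, and none in the lines alone. A probe that passed only through the splenocytes had to come out lower in the lines, so its call carries no weight of its own. Over the 64 probes bright on all 4 arrays, 54 were lower (30.9% of all 22749 such probes were) and 7 higher (32.7%) in the lines. Their median difference was −5.30, beside 0.01 over all such probes. Of the 64, 42 were called lower by at least 16-fold, against 1.77% of all such probes. The 5 probes not tested were AK089526, EG626104 and AK089910, which were dim on every array, and AK089634 and a second X96776 probe, each bright on 1 array.

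The variable segment Igkv8-16 had the largest increase. Its probe (chromosome 6, 70316456 to 70316515) gave a relative signal of 14.6 in line 1 and 20.1 in line 2, against 0.901 in splenocytes 1 and 1.06 in splenocytes 2. Both lines were far above both splenocyte samples, and the splenocyte values were close to each other. The difference was 4.13 ± 0.22 in log2 units (SE, n = 2 arrays against 2; limma adjusted p = 0.000431), or 17.5-fold. The same segment family holds Igkv8-34, which was bright on all arrays and went the other way. It also holds Igkv8-18, which was dim in both lines, so its lower call carries no weight of its own. Igkv8-34 was lower by 5.51 in log2 units (−5.51 ± 0.37, SE; limma adjusted p = 0.000678).

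A probe annotated to X96776, an entry described as an mRNA for a C2-Fcgamma fusion protein, had the next largest increase (chromosome 6, 70447766 to 70447825). Its relative signal was 16.2 in line 1 and 29.2 in line 2, against 0.957 in splenocytes 1 and 2.36 in splenocytes 2. The lines and the splenocytes did not overlap, though splenocytes 1 and 2 differed more here than at Igkv8-16. The difference was 3.86 ± 0.54 in log2 units (SE, n = 2 arrays against 2; limma adjusted p = 0.00416). Its other probe, 83 bases away, was bright only in splenocytes 1 and was not tested. Igkv3-12, whose probe starts 613 bases away, was lower by 7.38 in log2 units (−7.38 ± 0.43, SE; limma adjusted p = 0.000515).

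Igkv19-93, listed on the array as Igk-V38, was the other named segment that was higher in the lines. Its probe (chromosome 6, 68665895 to 68665954) gave 13.4 in line 1 and 17.7 in line 2, against 2.67 in splenocytes 1 and 4.61 in splenocytes 2, in relative signal. The difference was 2.14 ± 0.33 in log2 units (SE, n = 2 arrays against 2; limma adjusted p = 0.00551). It is the only probe of family 19 among the members.

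The remaining increases lay at probes without a segment name. NAP061492-1 (start 70298544) gave 1.95 and 1.71 in the lines, against 0.412 and 0.347 in the splenocytes, a difference of 2.27. NAP029125-1 (start 67563243) gave 38.0 and 26.5 in the lines, against 9.12 and 7.76 in the splenocytes, a difference of 1.92. All of these values are relative signals or log2 differences of them, and both lines lay above both splenocyte samples at each. ENSMUST00000067474, chosen after its values were seen, was higher by 1.18 ± 0.31 (SE, n = 2 against 2; limma adjusted p = 0.0279), and LOC672434 is described with the other genes. The call at ENSMUST00000067474 was lost without splenocytes 1 (adjusted p = 0.0577), without splenocytes 2 (adjusted p = 0.111) and with no filter on dim probes (adjusted p = 0.0612).

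The largest decreases among probes bright on all arrays were at segments near the constant end and in the middle of the locus. Igkv3-4 (start 70601799) gave 0.0162 in line 1 and 0.0645 in line 2, against 16.1 in splenocytes 1 and 13.4 in splenocytes 2. Both lines lay far below both splenocyte samples, and line 1 lay below line 2. The difference was −8.83 ± 0.69 in log2 units (SE, n = 2 arrays against 2; limma adjusted p = 0.000958). Igkv3-1 (start 70633506) gave 0.0125 and 0.0316 in the lines, against 6.32 and 5.11 in the splenocytes, a difference of −8.16. BC080787, a cDNA of the kappa chain complex, differed by −8.34, Igkv4-55 by −8.01 and Igkv5-43 by −7.74. The adjusted p of these probes ran from 0.000196 for Igkv5-43 to 0.000958 for Igkv3-4, over limma fits of all probes.

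Where a probe was dim in both lines, its fold is a lower bound set by the lowest bright signal of each line. An Igk-V1 probe (start 68200810) was at least 779-fold lower in the lines, Igkv17-121 at least 550-fold, Igkv5-48 at least 443-fold, Igkv1-135 at least 400-fold at its dimmer probe in the lines, and the probe named Asb2 at least 315-fold. Igkv17-121 gave 0.00404 and 0.00208 in the lines, against 3.45 and 4.39 in the splenocytes. The Igkv1-135 probe gave 0.00160 and 0.00179 in the lines, against 2.63 and 3.04 in the splenocytes. No probe had a bound in the other direction. These bounds hold for the processed signal, and normexp background correction gave smaller differences at the 5 probes, from −6.73 in log2 units at the Igk-V1 probe to −5.65 at the probe named Asb2. Igkv3-4 and Igkv3-1, bright on all arrays, also had smaller differences after it, of −7.30 and −6.36, and both were still called. The calls at the 5 probes dim in both lines carry no weight of their own.

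Of the 15 families, only families 8 and 19 held a segment that was higher in the lines. Family 4, the most represented with 10 probes, was lower at all 10, which were bright on every array, with a median difference of −5.85. Family 3 was lower at all 5 probes (median −8.83) and family 1 at all 5 (median −8.55), although 2 of the family 1 probes and 1 of the family 3 probes were dim in both lines and bright in both splenocyte samples. Over the probes bright on all arrays the median was −8.16 for 3 probes of family 3 and −5.94 for 2 of family 1. Family 9 had smaller differences, with a median of −4.04 over its 4 probes and the smallest, −1.64, at Igkv9-123. Without splenocytes 2 the Igkv9-123 call was lost (adjusted p = 0.0531), and likewise without line 2 (adjusted p = 0.0521). Relatives cannot be counted as separate evidence, since probes of a family may share targets.

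Probes described with a joining region also differed. The anti-TNF kappa chain AJ279029, described as VkF10 joined to Jk1 and the constant region, gave 7.48 and 10.8 in the lines, against 28.3 and 21.7 in the splenocytes. It stayed well above background in the lines and was lower by 1.46 in log2 units (−1.46 ± 0.26, SE, n = 2 against 2; limma adjusted p = 0.00843). Igkv6-32, whose probe starts 112 bases away, gave 0.0561 and 0.0564 in the lines, against 4.89 and 3.43 in the splenocytes, a difference of −6.19. Mel13, described as a VJ5 region of the Vk-Ox1 family, was lower by 7.53. U29595, a V-J region of an anti-DNA hybridoma, was dim in both lines, with 0.00165 and 0.00186, against 0.050 and 0.305 in the splenocytes. The splenocyte samples lay far apart here, so the bound of at least 17.4-fold lower became at least 7.07-fold without splenocytes 2, and normexp correction gave a difference of −2.05. L18942, described as a VJ region, aligned over 18447 bases from 70633716 to 70652162, and was lower by 8.13, with a difference of −5.80 after normexp correction.

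A few other kappa probes kept clear signal in the lines while being lower, and were chosen after their values were seen. AF152371, described as the kappa light chain of the antibody Mab7, gave 74.1 and 98.7 in the lines, against 216 and 368 in the splenocytes. The lines lay below both splenocyte samples, with a difference of −1.72 ± 0.32 in log2 units (SE, n = 2 arrays against 2; limma adjusted p = 0.0101). The Igkv14-111 probe, which starts 366 bases away, differed by −5.29. NAP095777-001 gave 6.99 and 9.85 in the lines, against 15.7 and 15.9 in the splenocytes, and Igkv10-95 gave 1.83 and 2.48 in the lines, against 6.97 and 27.6 in the splenocytes. The call at NAP095777-001 was lost without splenocytes 1 (adjusted p = 0.0759) without splenocytes 2 (adjusted p = 0.0814), after median centring (adjusted p = 0.0701) and with no filter on dim probes (adjusted p = 0.0504). The call at Igkv10-95 was lost without line 1 (adjusted p = 0.109) without line 2 (adjusted p = 0.0754) and with no filter on dim probes (adjusted p = 0.0533).

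At the constant end of the locus, the complete kappa cDNAs BC031498 and BC002112, whose probes start 13 bases apart, were lower by nearly the same amount. BC031498 gave 0.0481 and 0.0584 in the lines, against 4.77 and 9.20 in the splenocytes. The 2 probes differed by −6.97 each on the log2 scale. NAP052591-1, whose probe starts 147 bases before BC031498, gave 0.287 and 0.638 in the lines, against 1.16 and 1.23 in the splenocytes, a difference of −1.48. Its call was lost without splenocytes 1 (adjusted p = 0.0866), without splenocytes 2 (adjusted p = 0.102) and with no filter on dim probes (adjusted p = 0.0662).

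Neighbouring probes often gave different sizes. Among 23 pairs of tested probes whose starts lay within 1 kb, 22 pairs had the same sign and 11 differed by more than 2 on the log2 scale, with a median gap of 1.68. The exception in sign was the X96776 probe with Igkv3-12. Most tested members were lower, so a shared sign was likely for any pair. Pairs can share a probe, as those around U26471 (start 68200724) and NAP052591-1 do, so they are not separate cases. The largest gap within a shared sign, 8.22, lay between U26471 and an Igk-V1 probe that starts 86 bases away. Their annotated coordinates run in opposite directions. The Igk-V1 probe was dim in both lines, so the size of this gap rests on signals not above background. Some other pairs also hold a probe dim in both lines, and their gaps have the same limit. The probes of Igkv4-57-1 differed by −3.79 and −7.18, and those of Igkv12-41 by −5.78 and −6.07.

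Each line was also set against the splenocyte mean by size alone, since a line is 1 array. Of 91 members bright on at least 1 array of the comparison, line 1 was at least 4-fold higher at 4 (10.2% of all probes were) and at least 4-fold lower at 77 (16.4%). Line 2 was at least 4-fold higher at 4 (9.36% of all probes) and lower at 75 (13.9%). Of the 94 members, 65 were bright in line 1 and 69 in line 2. Members dim in a line entered through the splenocytes and had to come out lower, so they carry no weight in these counts. The 2 comparisons share the splenocyte arrays. No member had the lines on opposite sides of both splenocyte samples.

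The lines differed from each other by at least 4-fold at 3 of 70 members bright in at least 1 line (2.03% of all 26885 such probes did). None of the 3 was bright in both lines, so these sizes rest on signals not above background. L18942 and NAP061491-1 were dim in line 1, and were at least 4.51-fold and at least 2.08-fold lower in line 1 than in line 2. Over members bright in both lines the log2 difference of line 1 minus line 2 ran from −2.00 at Igkv3-4 to 1.24 at NAP017905-001. These also had larger gaps than most: Igkv3-1 (−1.34), BF135931 (−1.36) and a probe of Igkv4-57-1 (−1.17). With 1 array per line, none of these has a replicate check. The standard deviation of line 1 minus line 2 was 0.74 over the kappa members and 0.64 over all probes.

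The splenocyte samples differed from each other over part of the locus. By at least 2-fold, 21 of 91 members did so, against 5.11% of all 27583 probes bright in a splenocyte sample. In the middle of 3 equal stretches of the window, 21 of 23 probes were lower in splenocytes 1 and 13 were so by at least 2-fold, with a median of −1.26 for splenocytes 1 minus splenocytes 2. Igkv10-94 gave 1.22 in splenocytes 1 and 5.73 in splenocytes 2, and Igkv4-74 gave 1.73 and 7.59. In the stretch far from the constant end the median was −0.50, and in the stretch next to it 0.25. Over 87 probes the difference had Pearson's r of 0.30 and Spearman's rho of 0.32 with position, given as a description, since neighbouring probes share families and libraries. The difference between lines and splenocytes had r of −0.04 with position over 85 probes.

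Non-immunoglobulin genes of the window were measured as well. Rpia, ribose 5-phosphate isomerase of the pentose phosphate pathway, lies beyond the constant end and gave 35.1 and 29.5 in the lines, against 27.6 and 27.0 in the splenocytes (difference 0.24 ± 0.16, SE, n = 2 against 2; limma adjusted p = 0.258). 4930515G16Rik, a non-coding transcript by its accession, differed by 0.26 ± 0.15 (SE; limma adjusted p = 0.186). LOC672434, predicted to be like S-adenosylmethionine decarboxylase, an enzyme of polyamine synthesis, was higher by 1.40 ± 0.25 (SE; limma adjusted p = 0.00876), with 1.96 and 1.30 in the lines, against 0.650 and 0.560 in the splenocytes.

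Other immunoglobulin probes were set beside these as a description. Over all tested probes 32.3% were higher in the lines and 32.5% lower. Within 1 Mb of the window on each side, 15 of 34 tested probes were higher in the lines, 12 lower and 7 not called. There 4 probes were bright in the splenocytes alone. Over the 29 flanking probes bright on all arrays, 15 were higher and 7 lower, with a median of 0.44. The 10 probes of the lambda locus were higher at 8 and lower at 2, with a median difference of 2.79, and all 10 were bright on every array. The 50 tested probes of the heavy chain variable window were higher at 4 and lower at 46, with a median of −9.13, but 35 probes of that window were bright in the splenocytes alone. Over its 11 probes bright on all arrays, 4 were higher and 7 lower, with a median of −6.26. Of all probes bright on all arrays, 32.7% were higher and 30.9% lower. At its tested probe with the highest mean, the lambda variable gene Iglv1 (Igl-V1 on the array) gave 357 and 322 in the lines, against 128 and 200 in the splenocytes.

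Genes that act with kappa chains or on the locus went both ways, beside 32.3% of all tested probes higher and 32.5% lower. Over the 3 lists together 11 were higher and 15 lower, which turned to 16 higher and 10 lower after median centring, so the balance of directions depends on the scaling. Of 12 partner genes 9 had probes, and 2 were higher, 1 lower and 6 not called. Igll1, a surrogate light chain component of pro-B and pre-B cells, was higher at 0.0827 and 0.171 in the lines, against 0.0345 and 0.0291 in the splenocytes. Cd79b, a signalling subunit of the B cell receptor, was lower at 73.6 and 90.2 in the lines, against 189 and 288 in the splenocytes. Ighm, the mu heavy chain, gave 272 and 234 in the lines, against 272 and 539 in the splenocytes (limma adjusted p = 0.212).

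Of 13 recombination genes 11 were tested, and 4 were higher, 2 lower and 5 not called. Rag1 and Rag2, which cut the locus during rearrangement, were dim in both lines and not tested. Lig4, the ligase of end joining, was higher by 2.21 ± 0.15, Xrcc6 by 1.14 ± 0.16 and Xrcc5 by 1.06 ± 0.15 on the log2 scale (SE, n = 2 against 2). Xrcc5 and Xrcc6 encode the Ku proteins that bind broken ends. Atm, a kinase of the break response, was lower by 0.85 (−0.85 ± 0.17), and Prkdc, the kinase that Ku recruits, by 0.49 (−0.49 ± 0.14). After median centring 5 recombination genes were higher and none lower.

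All 28 regulator genes were tested, and 5 were higher, 12 lower and 11 not called, or 9 higher and 8 lower after median centring. Irf8 gave 8.02 and 6.22 in the lines, against 69.4 and 81.3 in the splenocytes. Bach2 gave 1.84 and 2.25 in the lines, against 15.8 and 16.4 in the splenocytes, and Ikzf1 gave 1.86 and 3.16 in the lines, against 13.5 and 14.5 in the splenocytes. These 3 transcription factors of B cells had the largest decreases. Ezh2 (1.07), Spib (0.93) and Irf4 (0.93) had the largest increases on the log2 scale. Irf4 and the Ets factors Spi1 and Spib bind kappa enhancers. Spi1 was lower by 0.54 (−0.54 ± 0.17, SE; limma adjusted p = 0.0450).

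Markers of other cells were measured beside these. Over all tested probes 32.3% were higher in the lines and 32.5% lower. A tested marker dim in both lines passed the filter through the splenocytes, so its lower call carries no weight of its own. Of 7 plasma cell genes 3 were higher in the lines (Prdm1, Xbp1 and Irf4) and 1 lower (Tnfrsf17), with summed relative signals of 47.0 and 79.0 in the lines, against 93.2 and 110 in the splenocytes. Of 7 macrophage and neutrophil genes 6 were lower and 1, Adgre1, higher. Lyz2 and S100a8 were dim in both lines, and the list summed to 35.4 and 35.8 in the lines, against 15.5 and 10.2 in the splenocytes. Adgre1 alone gave 35.3 and 35.7 in the lines, against 2.13 and 1.69 in the splenocytes. The other 6 genes summed to 0.0896 and 0.0781 in the lines, against 13.4 and 8.49 in the splenocytes, a sum taken after the values were seen. Of 6 T-cell genes with probes, 1 was higher and 3 lower, with sums of 6.37 and 7.70 in the lines, against 6.60 and 4.84 in the splenocytes. Cd3g alone gave 5.09 and 6.15 in the lines, against 0.289 and 0.258 in the splenocytes, and the other 5 summed to 1.28 and 1.56 in the lines, against 6.31 and 4.58 in the splenocytes. Cd8a was dim in both lines. Of 7 pro-B and pre-B genes 4 were tested, while Rag1, Rag2 and Kit were dim in both lines. Of the 4, 2 were higher and none lower. All 7, with the untested genes, summed to 0.982 and 0.828 in the lines, against 0.608 and 0.737 in the splenocytes. The part of these cells in the kappa results was not tested.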

How the data were processed

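Total RNA, 0.2 ug per sample, was labelled with Cy3 and hybridised to 4 single-colour arrays, all of 1 slide and 1 scan. Per the submitters' processing notes images were read with Agilent Feature Extraction 9.5, and per the file headers with 9.5.1.1. The deposited processed signal is an intensity corrected for background by the authors' software. The deposited mean and background intensities come from the same software and were taken as uncorrected in the normexp correction. Per the file headers, columns of 0 or 1 flag saturated spots, outliers and spots well above background. The deposited matrix is the same intensity times 1 factor per array, as read from the values.

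Log2 processed signals were centred on each array's 75th percentile, which ran from 514 to 1315. Spots flagged as outliers on any array were left out, and spots of a probe averaged. Probes bright on at least 2 of 4 arrays were compared in R 4.3.3 with limma 3.58.1 (lmFit, eBayes, two-sided; the data.table package had version 1.17.8), with Benjamini-Hochberg adjustment over all 27404 probes and a threshold of 0.05. limma added 2.42 prior to 2 residual degrees of freedom. The fit was tested on simulated data. With 2 arrays a group, the number of arrays limits the precision.

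Deviations of arrays sharing a replicate number correlated at 0.0113 over probes, so the numbers were taken not to pair samples. Members and gene lists were chosen with earlier results of these data known. By rule the text names probes with a joining region, the 5 largest increases and decreases bright on all arrays, and the 5 largest bounds. It also names the 8 largest line differences and the other genes of the window. Other window probes, such as neighbours, family relatives and the cDNAs at the constant end, were chosen outside that rule, with their values seen. A gene of the window and a marker gene are not reported here. For gene lists each gene is its tested probe with the highest mean, named through older symbols where needed. The 3 largest changes in each direction are named. Other genes of these lists, such as Spi1 and Ighm, are named outside that rule. Alternatives changed the background correction, scaling, filter, prior, flags, block and arrays. RefSeq names come from GRCm38.p6, and coordinates from the array annotation, mm8.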

Additional observations from a re-analysis of the deposited data

How the results depend on the processing

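Over the alternatives that kept all 4 arrays, the count of window probes higher in the lines was 6 to 9, and 7 in the main setting. The count lower was 54 to 79, and 79 in the main setting. The 54 came where a probe had to be bright on all arrays and 64 members were tested. These counts include the non-immunoglobulin genes. The added calls behind the counts of 8 and 9 higher were those of 4930515G16Rik and Rpia. Leaving out an array gave 6 to 7 higher and 75 to 78 lower. With a replicate block the counts were 7 and 79, and it changed no call of a kappa probe; over all probes 16749 were called with the replicate block, against 17755. Of the named kappa probes 24 were called, 15 where a probe had to be bright on all arrays, because fewer were tested. The partner, recombination and regulator genes gave 26 calls in the main setting and 15 to 34 over all alternatives. With an array left out they gave 15 to 25, the 15 without splenocytes 2, against 34 under a prior with an intensity trend and 19 where dim probes were kept; the cause was not tested. Members at least 4-fold apart between the lines numbered 3, and 0 after normexp background correction, 1 after quantile normalization, 0 where bright in both lines, 11 at 2-fold and 0 at 16-fold. 4930515G16Rik turned to −0.082 after normexp correction, and was called higher after quantile normalization (0.59) and median centring (0.67), as was Rpia after median centring (0.64). Of 27 named probes 24 kept their call in every alternative run for them. Median centring raised the median of all probes to 0.40 and the share of higher calls to 64.0%, against 49.9%, while the kappa median was −5.32; the kappa median was −4.14 after normexp correction, where the median of all probes was −0.29. A slide or scan block could not be fitted, since all arrays share 1 slide and 1 scan. Signals near background limit the folds of probes dim in a group, and 2 arrays per group limit the rest.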

Other observations

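Outside the window, 2 probes named Igkv14-111 lie on chromosome 12 (starts 93290953 and 93290882) and are described as mouse mammary tumor virus sequence. They were bright on 3 and 4 arrays and higher in the lines: the first gave a relative signal of 0.183 and 0.177 in the lines, against 0.0247 and 0.0134 in the splenocytes, and the second 0.272 and 0.264 in the lines, against 0.0311 and 0.0243 in the splenocytes. The differences were 3.31 ± 0.33 and 3.29 ± 0.18 in log2 units (SE, n = 2 arrays against 2; limma adjusted p = 0.00167 and 0.000468). The probe of the window with the same name was lower by 5.29 on the log2 scale. U55685, with no coordinate, gave 0.882 and 1.18 in the lines, against 4.81 and 4.37 in the splenocytes, and LOC383196 on chromosome 19 was dim in both lines, with 0.338 and 0.482 in the splenocytes.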
